A study of Homo sapiens with 4 samples.

Results

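Aminoacyl-tRNA synthetases are the enzymes that join each amino acid to its transfer RNA, and their genes were followed here in 2 human pancreatic cancer cell lines given a microRNA mimic. The members are the 36 genes of this family on a list of symbols, 21 for enzymes of the cytosol and 15 for enzymes of mitochondria, and all 36 were found among the 26255 gene symbols measured. RNA was sequenced from MIA PaCa-2 cells transfected with a mimic of miR-4800-3p, MIA PaCa-2 cells transfected with a scrambled control oligonucleotide, PSN-1 cells transfected with the mimic and PSN-1 cells transfected with the scramble. Each of these 4 groups had 1 library, so no value has a replicate within its line, and no test of the mimic within a line was possible. The study set out to look for messenger RNAs that miR-4800-3p acts on. No oligonucleotide dose and no time after transfection is given in the sources used here. In bulk RNA of this kind, fewer cells with a messenger and less of it per cell cannot be told apart.

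Values are FPKM, fragments scaled to transcript length and to library size, so levels of different genes can be set side by side. Between 15699 and 17294 symbols were above 0 in a library, and 1 FPKM was estimated to stand for 12.7 to 15.9 fragments per kilobase. Both lines carry a label of epithelial cells. Their keratin genes KRT8, KRT18 and KRT19 were at 78.2 FPKM or more in every library, while the adhesion gene CDH1 was at 1.51 FPKM or less in every library, and EPCAM at 0.139 FPKM or less and KRT7 at 0 in MIA PaCa-2. Of 4 leukocyte genes CD3E was at 0 and PTPRC at 0.433 FPKM or less, while CD68 was at 20.1 to 38.7 FPKM and LYZ at 0.239 to 3.01 FPKM. Of 5 fibroblast genes COL1A2 was at 59.9 and 76.8 FPKM in MIA PaCa-2 (mimic, scramble), and COL1A1, LUM and PDGFRB were at 10.2 to 20.9 FPKM in PSN-1, and 3 endothelial genes summed to 1.74 FPKM or less. The part of these genes in the synthetase values was not tested.

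A tRNA that carries its amino acid is the direct substrate of the ribosome, and most amino acids have 1 synthetase for the cytosol and another, encoded by a separate nuclear gene, for mitochondria. GARS and KARS serve both compartments from 1 gene each, and EPRS joins a glutamyl and a prolyl enzyme in 1 protein. Several cytosolic enzymes sit together in a multi-synthetase complex held by the scaffold proteins AIMP1, AIMP2 and EEF1E1. When amino acids are scarce or protein folding fails, kinases phosphorylate the initiation factor eIF2, the transcription factor ATF4 is made, and ATF4 binds composite C/EBP-ATF elements near many amino acid genes, those of a set of cytosolic synthetases included.

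Cytosolic enzymes made up most of the synthetase messenger RNA. Their summed level was 2431 FPKM in the MIA PaCa-2 mimic library and 2234 in the MIA PaCa-2 scramble library, and 1718 in the PSN-1 mimic library and 1596 in the PSN-1 scramble library. The 15 mitochondrial genes summed to 248 and 258 FPKM in MIA PaCa-2 (mimic, scramble) and to 238 and 244 FPKM in PSN-1 (mimic, scramble). With the mimic the cytosolic sum was thus 8.78% higher in MIA PaCa-2 and 7.62% higher in PSN-1, and the mitochondrial sum differed by -4.07% and -2.52%. Much of the cytosolic excess was GARS, which also serves mitochondria. Without GARS, left out after its values were seen, the sum of the other 20 cytosolic genes was 2.66% higher in MIA PaCa-2 and 4.78% higher in PSN-1.

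The alanine enzyme gene AARS had the highest mean level, at 451 FPKM under the mimic and 434 under the scramble in MIA PaCa-2, and 195 with the mimic and 174 with the scramble in PSN-1. SARS, for serine, followed with 253 and 201 FPKM in MIA PaCa-2 (mimic, scramble) and 185 and 178 in PSN-1 (mimic, scramble). GARS, WARS and KARS, for glycine, tryptophan and lysine, completed the 5 highest by mean level. At the other end, MARS2, the mitochondrial methionine enzyme, was at 2.41 and 2.67 FPKM in MIA PaCa-2 (mimic, scramble) and 1.93 and 1.62 in PSN-1 (mimic, scramble). TARSL2, a second cytosolic threonine enzyme, ran from 2.07 to 6.26 FPKM over the 4 libraries and WARS2 from 3.91 to 7.0 FPKM.

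For 13 amino acids both a cytosolic and a mitochondrial gene were among the members, and the cytosolic level was the higher in every library for 12 of them. The exception was valine, where VARS stood to VARS2 at 1.67 and 1.42 in MIA PaCa-2 (mimic, scramble) and at 1.05 and 0.999 in PSN-1 (mimic, scramble). Histidine (1.31 to 1.54) and isoleucine (1.49 to 2.04) had the next lowest ratios of cytosolic to mitochondrial level. HARS and HARS2 overlap each other on opposite strands, as 11 of 36 members overlap some coding gene on the other strand. The strand setting of the counting is not given in the sources used here, so such pairs may share reads. Alanine had the highest median ratio (42.3), with AARS at 30.6 to 61.2 times the level of AARS2. IARS2, for isoleucine, was the mitochondrial gene with the highest level in all 4 libraries, at 59.8 to 68.5 FPKM.

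**Figure D1:**
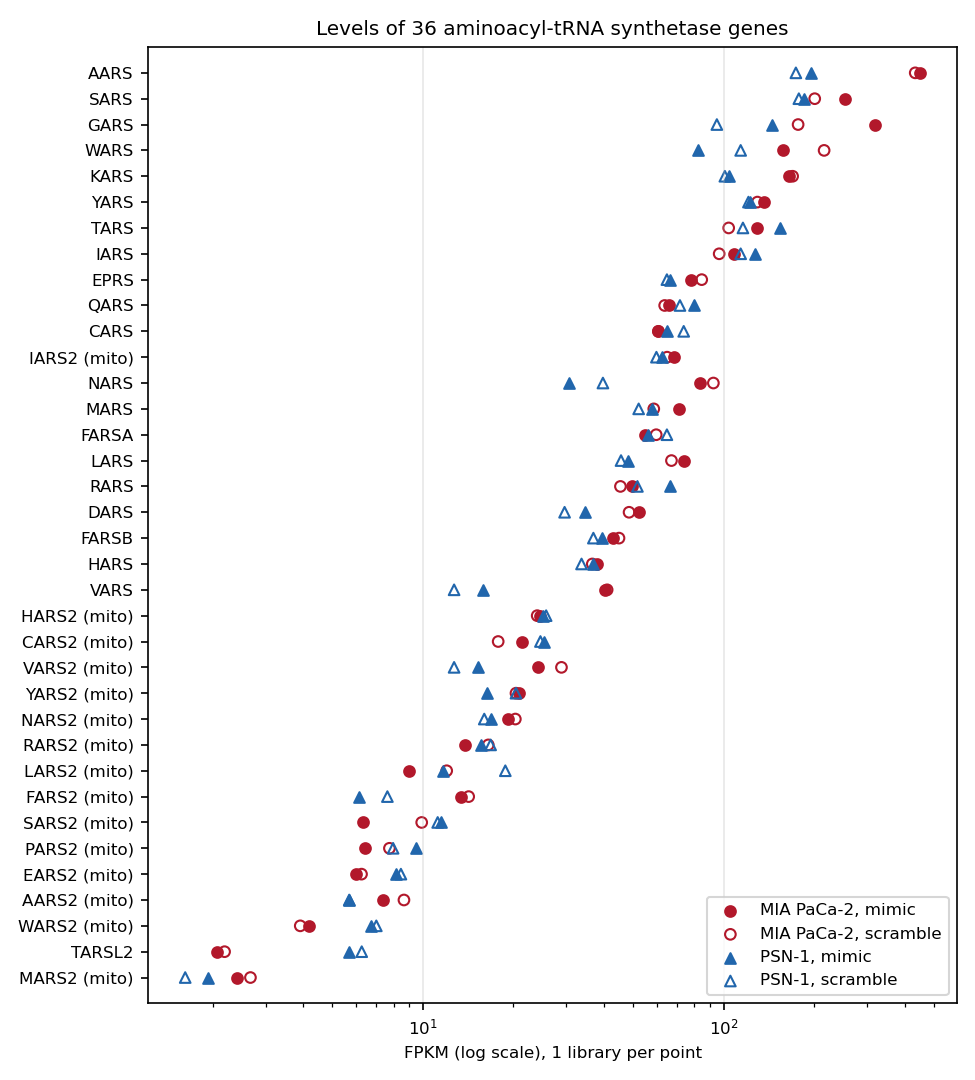
FPKM of the 36 synthetase genes on a log axis, 1 point per library, ordered by mean level; red circles are MIA PaCa-2, blue triangles PSN-1, filled for the mimic and open for the scramble, and mitochondrial enzymes are marked (mito). The cytosolic genes fill the upper rows apart from TARSL2, with AARS at 174 to 451 FPKM, and IARS2 (59.8 to 68.5 FPKM) is the only mitochondrial gene among them.

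With the mimic most synthetase genes differed little on the scale of log2(FPKM + 1). In MIA PaCa-2, 1 of 36 members was higher past 1.5-fold, GARS, where 5.43% of 11484 measured genes were, and 0 were lower past it, where 4.06% of all measured genes were. In PSN-1, 1 member was higher past 1.5-fold, again GARS, against 3.17% of 12233 genes, and 1 was lower, LARS2, against 3.87% of genes. Of the 36 members 0 passed 2-fold in either line, where 1.31% of genes were higher and 0.81% lower in MIA PaCa-2, and 0.85% higher and 0.777% lower in PSN-1. Past a log2 change of 0.32, a smaller threshold, 2 members were higher in MIA PaCa-2 (15.8% of genes) and 3 lower (12.1% of genes), and in PSN-1 3 were higher (10.4% of genes) and 3 lower (13.9% of genes). Each count of 1 past 1.5-fold was 2.78% of the members, near the 2 shares of all genes in PSN-1. Whether the members differ from all genes in this was not tested. A gene counted as measured in a line where its 2 libraries averaged 1 FPKM or more, and all 36 members met that in both lines.

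The median of the cytosolic enzymes lay slightly above that of the mitochondrial ones in both lines. In MIA PaCa-2, 12 of 21 cytosolic members were above 0 with a median log2 change of 0.050, and 5 of 15 mitochondrial members were above 0 with a median of -0.076, beside 52.2% of all measured genes above 0, 47.8% below 0 and a median of 0.014. In PSN-1, 16 of 21 cytosolic members were above 0 (median 0.091) and 7 of 15 mitochondrial members (median -0.004), beside 47.6% of all genes above 0 and 52.4% below 0 (median -0.016). The distance between the class medians was small beside the spread of the members, which ran from -0.58 to 0.84 in MIA PaCa-2 and from -0.64 to 0.60 in PSN-1. With values rescaled to TPM the cytosolic median in MIA PaCa-2 was 0.006, and whether the classes differ was not tested.

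**Figure D2:**
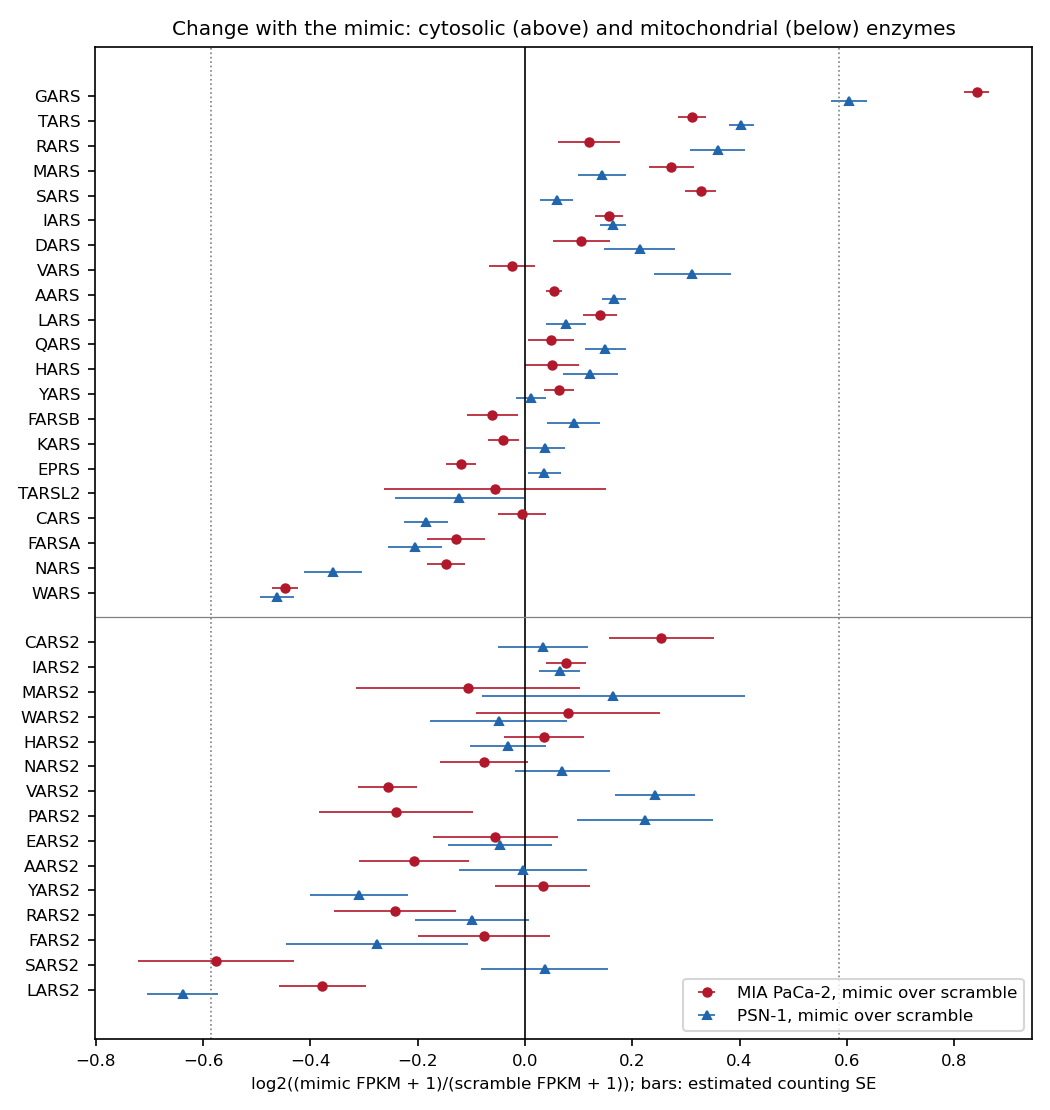
log2((mimic FPKM + 1)/(scramble FPKM + 1)) of each synthetase gene in MIA PaCa-2 (red circles) and PSN-1 (blue triangles), cytosolic enzymes above the line and mitochondrial ones below it, with bars for the estimated counting SE (of a ratio without the pseudocount) and dotted lines at 1.5-fold. GARS lies beyond the dotted line on the right in both lines (0.84 and 0.60) and LARS2 beyond the one on the left in PSN-1 (-0.64).

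GARS (chr7:30594681-30634033, plus strand, GRCh38), which charges glycine tRNA in the cytosol and in mitochondria, had the highest change of the family in both lines. It was at 319 FPKM under the mimic and 177 under the scramble in MIA PaCa-2, 1.79-fold higher. In PSN-1 it was at 145 FPKM under the mimic and 95 under the scramble, 1.52-fold higher. Both mimic libraries were above the scramble library of their own line, although the PSN-1 mimic level was below the MIA PaCa-2 scramble level. The counting SE of these log2 changes was estimated at 0.0238 in MIA PaCa-2 cells and 0.0328 in PSN-1, without any error between cultures. In limma's fit of both lines GARS had a mean log2 change of 0.72 (SE 0.104) and was not called (adjusted p = 0.135 in limma, higher in 2 of 2 lines), with adjusted p from 0.0783 to 1.0 over the alternatives. GARS was 1 of the 0.749% of 10678 genes higher past 1.5-fold in both lines, and 0 members were lower past it in both (0.609% of genes).

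TARS, the cytosolic threonine enzyme, came next among the genes higher in both lines. It was at 129 FPKM under the mimic and 104 under the scramble in MIA PaCa-2 (log2 change 0.31), and at 154 with the mimic and 116 with the scramble in PSN-1 (0.40). RARS, for arginine, was at 66.6 FPKM under the mimic and 51.7 under the scramble in PSN-1 (0.36) and at 49.5 and 45.4 FPKM in MIA PaCa-2 (mimic, scramble; 0.12). SARS showed the reverse order of the lines, with a log2 change of 0.33 in MIA PaCa-2 cells and 0.059 in PSN-1. VARS, for valine, was at 15.9 FPKM under the mimic and 12.7 under the scramble in PSN-1 (0.31), and at 40.3 and 41.0 FPKM in MIA PaCa-2 (mimic, scramble; -0.024).

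MARS, the methionine enzyme, was at 71.0 FPKM under the mimic and 58.6 under the scramble in MIA PaCa-2 (log2 change 0.27) and at 57.7 and 52.2 FPKM in PSN-1 (mimic, scramble; 0.14). Its gene overlaps DDIT3, a stress-induced transcription factor gene on the opposite strand, in the GENCODE annotation. DDIT3 was itself at 656 FPKM under the mimic and 474 under the scramble in MIA PaCa-2 and at 1119.5 and 842 FPKM in PSN-1 (mimic, scramble). The part of DDIT3 in the MARS values was not tested.

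Of 12 cytosolic synthetases known as ATF4-induced, 8 were above 0 in MIA PaCa-2 (median log2 change 0.102) and 9 in PSN-1 (median 0.068). The other 9 cytosolic members had 4 above 0 in MIA PaCa-2 (median -0.024) and 7 in PSN-1 (median 0.122). Of all measured genes 52.2% were above 0 in MIA PaCa-2 (median 0.014) and 47.6% in PSN-1 (median -0.016). GARS, TARS, SARS, MARS, IARS, AARS, LARS and YARS of the first group were above 0 in both lines, while WARS, NARS and CARS of the same group were below 0 in both. Among these, CARS in MIA PaCa-2 (-0.005, counting SE 0.0447) and YARS in PSN-1 (0.011, counting SE 0.0282) lay within their counting SE of 0. The order of the 2 groups' medians thus differed between the lines.

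The composite element was searched for in the promoters of these genes. The motif searched was TGATGNAAN on either strand, which reads NTTNCATCA on the other, in RefSeq promoters (GRCh38.p14) of 250 bases before and 50 after a gene's start. Promoters were matched for 29 of 36 members, leaving DARS, LARS, TARSL2, VARS, YARS, AARS2 and VARS2. The motif was present in 7 of 10 matched genes of the ATF4-induced group, in 0 of 6 other cytosolic genes and in 1 of 13 mitochondrial genes, beside 566 of 15664 protein-coding genes (3.61%). Genes of this group are known for the element partly from studies of these promoters, so the share is not independent evidence. The 7 stretches are shown with the motif in capitals, 5′ to 3′ on the strand of the gene, since ATF4 is known to bind elements of this kind. The mitochondrial gene with the motif was YARS2.
AARS (chr16:70289675-70289704, minus strand): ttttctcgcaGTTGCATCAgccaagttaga
CARS (chr11:3057407-3057436, minus strand): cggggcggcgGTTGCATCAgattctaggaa
GARS (chr7:30594834-30594863, plus strand): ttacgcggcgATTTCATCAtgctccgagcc
IARS (chr9:92293692-92293721, minus strand): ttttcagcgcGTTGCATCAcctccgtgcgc
MARS (chr12:57488053-57488082, plus strand): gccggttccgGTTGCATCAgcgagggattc
NARS (chr18:57621803-57621832, minus strand): ctacgctctcTGATGCAACgccggaatcgc
TARS (chr5:33440956-33440985, plus strand): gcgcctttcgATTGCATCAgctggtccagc

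In 6 of these 7 the core was TTGCATCA, or TGATGCAA in NARS, a string found in 0.907% of protein-coding promoters, and GARS held the variant with T at the variable place. AARS, CARS, IARS, MARS and TARS share the same core and orientation, yet their log2 changes with the mimic ran from -0.005 for CARS to 0.31 for TARS in MIA PaCa-2 and from -0.18 to 0.40 for the same genes in PSN-1. NARS, with the element on the other strand, was at -0.15 and -0.36. Its element began past the gene's start, as that of TARS did. A match in these letters does not show that the element is used in these cells.

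Other genes of the amino acid response had a higher median in MIA PaCa-2 than in PSN-1, a difference that was not tested. Of 30 measured genes of this list, 26 were above 0 in MIA PaCa-2 (median log2 change 0.27; 52.2% of all genes were above 0) and 7 were higher past 1.5-fold (5.43% of all genes). In PSN-1 14 of 31 were above 0 (median -0.007; 47.6% of all genes), 1 was higher (3.17% of all genes) and 1 lower (3.87% of all genes) past 1.5-fold. TRIB3, a pseudokinase gene induced by ATF4, was at 217 FPKM under the mimic and 101 under the scramble in MIA PaCa-2 (1.09), and at 124 with the mimic and 151 with the scramble in PSN-1 (-0.28). ATF3, a stress transcription factor gene, was higher past 1.5-fold in both lines (0.92 and 1.24). The others past that fold in MIA PaCa-2 were CEBPB (1.82), SESN2 (0.88), SLC7A11 (0.84), CEBPG (0.81) and SLC6A9 (0.68), and in PSN-1 CHAC1 was at 1.54 FPKM under the mimic and 3.04 under the scramble (-0.67). ATF4 itself was at 84.7 FPKM under the mimic and 74.3 under the scramble in MIA PaCa-2, and at 117 and 136 FPKM in PSN-1 (mimic, scramble), though ATF4 is known to be controlled mainly in translation. The synthetase medians were below the list's median in MIA PaCa-2, and the difference between the lists was not tested. In limma's fit of both lines ATF3 had the lowest adjusted p of the list and was not called (adjusted p = 0.103 in limma).

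**Figure D3:**
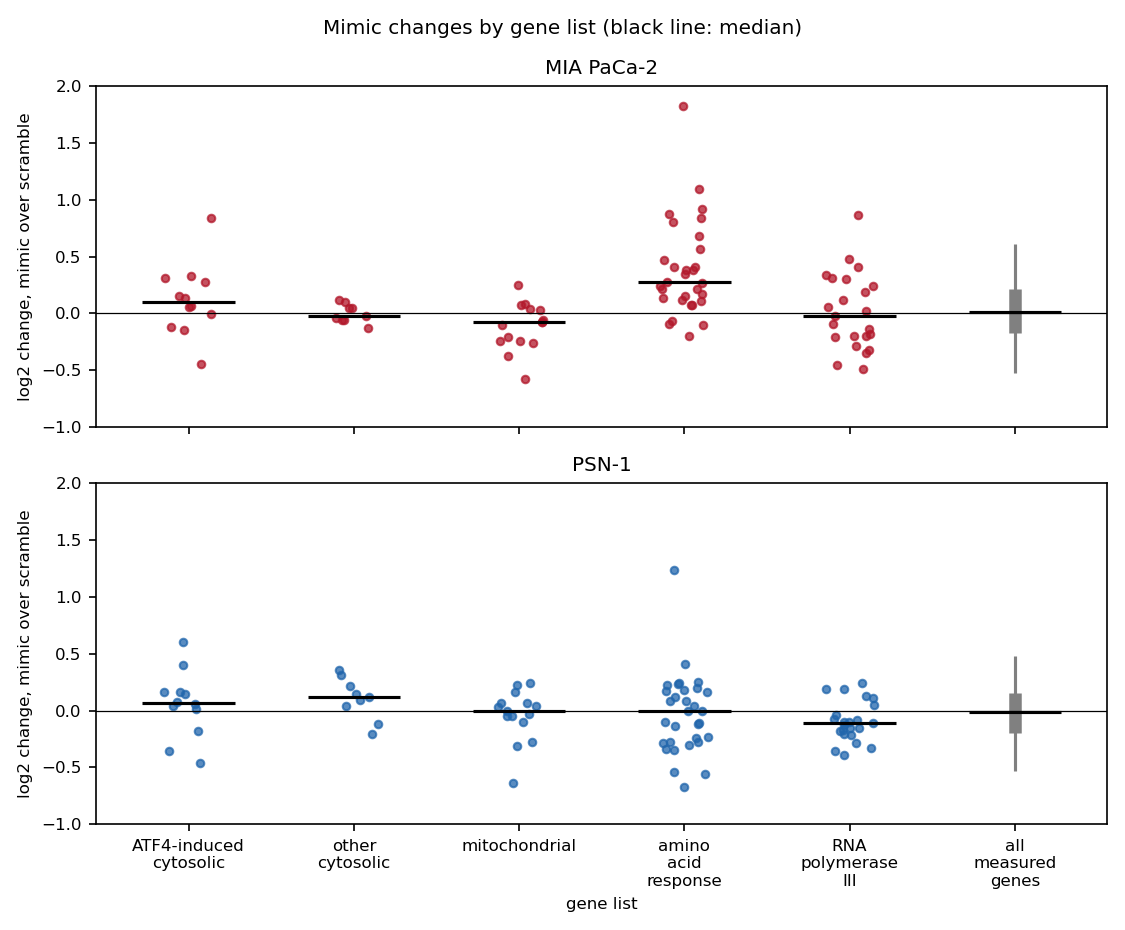
log2 change with the mimic by gene list, MIA PaCa-2 above and PSN-1 below, 1 point per measured gene with the list's median as a black line, and for all measured genes the middle 50% (thick bar) and 90% (thin bar). The amino acid response genes have a median of 0.27 in MIA PaCa-2 cells and -0.007 in PSN-1, and the ATF4-induced cytosolic synthetases 0.102 and 0.068.

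WARS (chr14:100333788-100376805, minus strand, GRCh38), the cytosolic tryptophan enzyme, known as an interferon-inducible gene, was the lowest cytosolic member in both lines. It was at 158 FPKM under the mimic and 216 under the scramble in MIA PaCa-2, 1.36-fold lower. In PSN-1 it was at 82.4 FPKM under the mimic and 114 under the scramble, 1.38-fold lower. The mimic library was below the scramble library of its own line both times, by nearly the same factor. WDR25, a coding gene that overlaps WARS on the opposite strand, was at 20.9 and 19.6 FPKM in MIA PaCa-2 (mimic, scramble) and at 6.09 and 6.05 FPKM in PSN-1 (mimic, scramble). In limma's fit of both lines the mean log2 change of WARS was -0.45 (SE 0.0957), and WARS was not called (adjusted p = 0.241 in limma, lower in 2 of 2 lines).

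WARS was also the member with the most matches to the seed of miR-4800-3p, all in the coding sequence. The mature microRNA and the matches in members are shown because they are the letters through which a mimic could pair with these messengers. Capitals mark the seed (bases 2 to 8) in the microRNA. In the messengers they mark the site, which is the complement of bases 2 to 8 in GACGGAT, the complement of bases 2 to 7 followed by an A opposite base 1 in ACGGATA, and both together in the 8mer, in the longest-3′ UTR coding transcript of GENCODE release 29 (GRCh38). Coordinates beside a messenger are those of the capitals, all of them in coding exons.
miR-4800-3p (chr4:2250091-2250109, minus strand): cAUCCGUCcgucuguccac
WARS, 8mer (chr14:100343307-100343314, minus strand): ttccgagacagGACGGATAtccagtgcctt
WARS, 7-mer (chr14:100353821-100353827, minus strand): gtcatccagatGACGGATgacgagaagtat
AARS, 7-mer (chr16:70268362-70268368, minus strand): atatgtgttgaGACGGATtctccgccgagc
CARS, 7-mer (chr11:3039846-3039852, minus strand): gcatgaacattACGGATAttgatgacaaga
IARS2, 7-mer (chr1:220110914-220110920, plus strand): ttataaacatcACGGATAttaagactgcag

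Matches to the 8mer GACGGATA or to the 7-mers GACGGAT and ACGGATA, read on the messenger strand, were thus found in the coding sequence of 4 of 36 members (11.1%), beside 742 of 19132 coding genes (3.88%). In the 3′ UTR 0 of 36 members had one, beside 2.11% of all coding genes. Of the other 3 genes with a coding match, CARS was below 0 in both lines, as WARS was, and AARS and IARS2 above 0 in both. AARS was at 0.054 and 0.17 (log2 change for MIA PaCa-2, then PSN-1), IARS2 at 0.077 and 0.065, and CARS at -0.005 and -0.18. Whether any match is bound was not measured.

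NARS, for asparagine, and FARSA, the alpha subunit of the phenylalanine enzyme, were also lower with the mimic in both lines. NARS was at 30.7 FPKM under the mimic and 39.7 under the scramble in PSN-1 (-0.36), and at 83.5 and 92.5 FPKM in MIA PaCa-2 (mimic, scramble; -0.15). FARSA was at 56.1 FPKM under the mimic and 64.8 under the scramble in PSN-1 (-0.20), and at 54.6 and 59.7 FPKM in MIA PaCa-2 (mimic, scramble; -0.13). FARSB, which encodes the partner subunit of the same enzyme, was at -0.061 in MIA PaCa-2 cells and 0.091 in PSN-1, so the subunits' messengers lay on opposite sides of 0 in PSN-1.

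Among the 15 mitochondrial members LARS2 (chr3:45388506-45549421, plus strand, GRCh38), for leucine, was the lowest over both lines. It was at 9.01 FPKM under the mimic and 12.0 under the scramble in MIA PaCa-2 (1.30-fold lower). In PSN-1 it was at 11.7 FPKM under the mimic and 18.8 under the scramble (1.56-fold lower). The cytosolic leucine gene LARS lay on the other side of 0 in both lines (0.14 and 0.076), so that the ratio of LARS to LARS2 was 8.22 with the mimic and 5.59 with the scramble in MIA PaCa-2, and 4.11 with the mimic and 2.43 with the scramble in PSN-1. In limma's fit of both lines LARS2 had a mean log2 change of -0.51 (SE 0.155) and was not called (adjusted p = 0.400 in limma, lower in 2 of 2 lines). LARS2 and WARS were the 2 members lower in both lines past a log2 change of 0.32, where 3.41% of 10678 genes were, and GARS was the 1 member higher past it in both, where 3.29% were.

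SARS2, the mitochondrial serine enzyme, was lower with the mimic in MIA PaCa-2. It was at 6.32 FPKM under the mimic and 9.91 under the scramble in MIA PaCa-2 (log2 change -0.58, counting SE 0.146). That was just short of 1.5-fold with the pseudocount of 1. The change was -0.64 with a pseudocount of 0.1 and -0.65 with TPM scaling, both past 1.5-fold, and -0.40 with a pseudocount of 5. In PSN-1 SARS2 was at 11.5 and 11.2 FPKM (mimic, scramble; 0.037). The gene overlaps MRPS12, a mitochondrial ribosomal protein gene on the opposite strand, which was at -0.040 in MIA PaCa-2. As SARS was higher in that line, the ratio of SARS to SARS2 was 40.0 with the mimic and 20.3 with the scramble in MIA PaCa-2, against 16.1 and 15.9 in PSN-1 (mimic, scramble). YARS2, for tyrosine, was at 16.3 FPKM under the mimic and 20.4 under the scramble in PSN-1 (-0.31), and at 20.9 and 20.4 FPKM in MIA PaCa-2 (mimic, scramble; 0.033). FARS2, for phenylalanine, was at -0.28 in PSN-1 and -0.076 in MIA PaCa-2, RARS2 for arginine at -0.24 in MIA PaCa-2 cells and -0.098 in PSN-1.

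VARS2 and PARS2, for valine and proline, lay on opposite sides of 0 in the 2 lines. VARS2 was at 24.1 FPKM under the mimic and 28.9 under the scramble in MIA PaCa-2 (-0.26), and at 15.2 with the mimic and 12.7 with the scramble in PSN-1 (0.24). PARS2 was at 6.40 and 7.74 FPKM in MIA PaCa-2 (mimic, scramble; -0.24, counting SE 0.143) and at 9.46 and 7.96 FPKM in PSN-1 (mimic, scramble; 0.22, counting SE 0.127). CARS2, for cysteine, had the highest mitochondrial change in MIA PaCa-2, at 21.4 FPKM under the mimic and 17.8 under the scramble (0.25), and was at 0.033 in PSN-1. The remaining mitochondrial genes, AARS2, EARS2, HARS2, IARS2, MARS2, NARS2 and WARS2, lay between -0.21 and 0.17 in both lines, and at low levels such as those of MARS2 the counting SE alone was 0.208 in MIA PaCa-2 cells and 0.245 in PSN-1.

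In MIA PaCa-2 the 8 enzymes of the multi-synthetase complex ran from -0.12 (EPRS) to 0.27 (MARS), with 6 of 8 above 0. In the same line 12 of 21 cytosolic members and 52.2% of all measured genes were above 0. For PSN-1 the range was 0.036 (EPRS) to 0.36 (RARS), with 8 of 8 above 0. There 16 of 21 cytosolic members and 47.6% of all genes were above 0. Whether the complex differs from the other cytosolic members was not tested. Its 8 enzymes are DARS, EPRS, IARS, KARS, LARS, MARS, QARS and RARS, and their medians were 0.112 and 0.146. KARS, the lysine enzyme, was at 165 and 169.7 FPKM in MIA PaCa-2 (mimic, scramble) and at 104 and 101 FPKM in PSN-1 (mimic, scramble). IARS, for isoleucine, was at 108 and 96.7 FPKM in MIA PaCa-2 (mimic, scramble) and at 127 and 114 FPKM in PSN-1 (mimic, scramble), above the scramble library of its own line both times. The scaffold gene AIMP2 was at 104 FPKM under the mimic and 82.1 under the scramble in MIA PaCa-2 (0.34), and at 44.7 with the mimic and 51.7 with the scramble in PSN-1 (-0.20). AIMP1 was at 0.056 and 0.022, and EEF1E1 at 0.14 and -0.097. By structural class, which follows the fold of the catalytic domain, the 19 class I members had medians of 0.033 in MIA PaCa-2 cells and 0.036 in PSN-1 and the 17 class II members -0.055 and 0.059.

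Over both lines 14 of 36 members were above 0 in both (28.1% of 10678 genes were), and 10 were below 0 in both (27.6% of genes). Set against each other between the lines, the changes gave Pearson r 0.793 and Spearman rho 0.697 over the 21 cytosolic genes, 0.086 and -0.146 over the 15 mitochondrial genes, and 0.178 and 0.198 over all 10678 genes. These are descriptions across genes, which share the library of each line and are not independent replicates, and the mitochondrial genes have fewer fragments each. The cytosolic value includes GARS and WARS, the most distant points on the diagonal. In limma's fit with the cell line as a block, which has 1 residual degree of freedom, 0 of 36 members were called higher and 0 lower at an adjusted p under 0.05, where 7 of 10678 genes (0.0656%) were, 0.0562% higher and 0.00937% lower. With p unadjusted and under 0.05, limma had 4 members, GARS and TARS higher and WARS and LARS2 lower (11.1%), beside 9.93% of all genes, 5.0% higher and 4.93% lower.

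**Figure D4:**
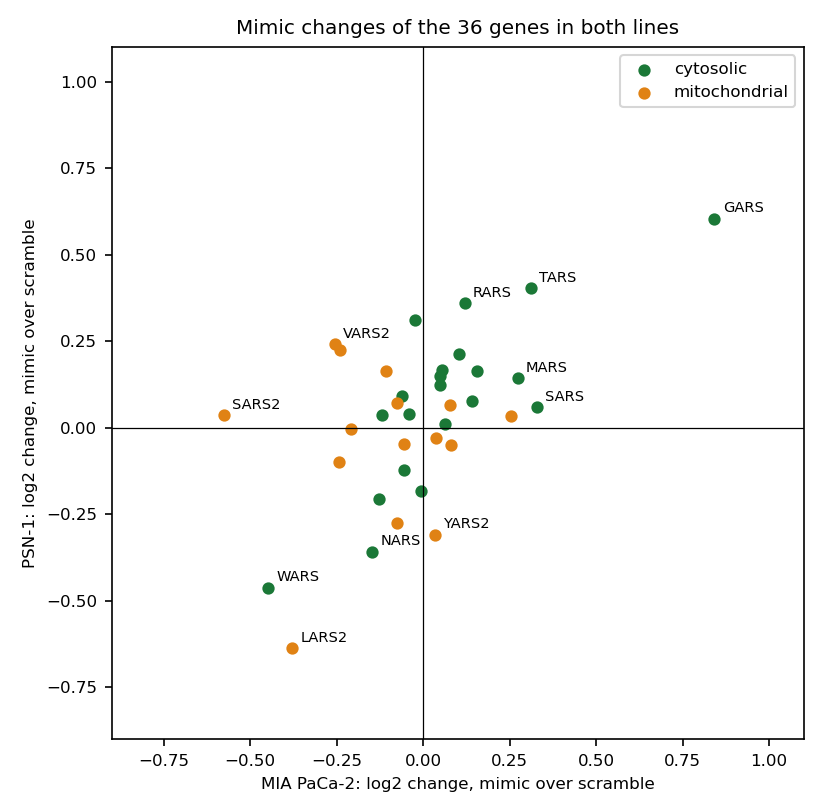
Change with the mimic in MIA PaCa-2 (horizontal axis) and in PSN-1 (vertical axis), log2((mimic FPKM + 1)/(scramble FPKM + 1)), 1 point per gene, green for cytosolic and orange for mitochondrial enzymes. GARS lies at the upper right (0.84, 0.60) and WARS (-0.45, -0.46) and LARS2 (-0.38, -0.64) at the lower left, while VARS2 (-0.26, 0.24) lies at the upper left.

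More members were called between the lines than for the mimic. In the same limma fit, with 2 libraries per line and the oligonucleotide as a block, 3 members were higher in PSN-1 than in MIA PaCa-2 and 10 were lower at an adjusted p under 0.05. Of all 10678 genes 24.2% were higher and 27.5% lower, so 13 of 36 is a smaller share than the 51.7% of genes called in either direction. At an unadjusted p under 0.05 limma had 16 members, beside 58.7% of genes. Of the cytosolic members 1 was called higher and 8 lower (median difference -0.23), of the mitochondrial members 2 higher and 2 lower (median 0.063), beside a median of -0.035 over all genes. The 2 libraries of each line carry consecutive library names, but names do not say whether the lines were prepared together. If they were prepared apart, cell line and library preparation cannot be told apart.

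VARS, NARS and AARS were the members lowest in PSN-1. VARS was at 15.9 and 12.7 FPKM in the PSN-1 libraries (mimic, scramble) and at 40.3 and 41.0 in the MIA PaCa-2 libraries (mimic, scramble), 2.74-fold lower (log2 difference -1.45, SE 0.148, adjusted p = 0.00102 in limma). NARS was at 30.7 and 39.7 FPKM in PSN-1 (mimic, scramble) and at 83.5 and 92.5 in MIA PaCa-2 (mimic, scramble), 2.47-fold lower (adjusted p = 0.000789 in limma). AARS was 2.39-fold lower in PSN-1 (adjusted p = 0.000335 in limma), at 195 and 174 FPKM in PSN-1 (mimic, scramble) against 451 and 434 in MIA PaCa-2 (mimic, scramble). For these 3 genes the libraries of the lines did not overlap, as for 30 of 36 members in all and for 76.5% of all genes.

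GARS (2.02-fold lower, adjusted p = 0.00103 in limma) and WARS (1.90-fold lower, adjusted p = 0.00106 in limma) were lower in PSN-1 as well, as were KARS, DARS, LARS, FARS2 and VARS2, at -0.58 to -0.92 on the log2 scale. The valine genes VARS and VARS2 were thus both lower in PSN-1, whereas for tryptophan the cytosolic gene was lower and the mitochondrial gene WARS2 higher. WARS2 was at 6.74 and 7.0 FPKM in PSN-1 (mimic, scramble) and at 4.19 and 3.91 in MIA PaCa-2 (mimic, scramble), 1.56-fold higher (adjusted p = 0.0224 in limma). TARSL2 was the member most in excess in PSN-1, at 5.67 and 6.26 FPKM in PSN-1 (mimic, scramble) against 2.07 and 2.19 in MIA PaCa-2 (mimic, scramble). On the scale of FPKM + 1 it was 2.23-fold higher (adjusted p = 0.00352 in limma). Its log2 difference was 1.15 on that scale, 1.44 with a pseudocount of 0.1 and 0.62 with a pseudocount of 5. TARS, which charges the same amino acid, differed by 0.21 on the log2 scale (SE 0.0989, adjusted p = 0.132 in limma).

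LARS2 was the third gene called higher in PSN-1 (log2 difference 0.47, adjusted p = 0.0459 in limma), but its libraries overlapped, with 11.7 FPKM in the PSN-1 mimic library and 12.0 in the MIA PaCa-2 scramble library. Without the oligonucleotide as a block it was not called (adjusted p = 0.177 in limma), nor without any filter on low values (adjusted p = 0.0735 in limma). SARS2 and EARS2, the next highest, were not called (adjusted p = 0.0963 and 0.0875 in limma).

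Each library was also left out in turn, in a fit without the oligonucleotide term, to be read against the fit of that form on all 4 libraries, which called 2 members higher and 10 lower. A line then has 1 library, which is assumed to vary like the 2 of the other line. Without the PSN-1 scramble library 1 member was called higher and 6 lower, and without the PSN-1 mimic library 1 higher and 7 lower. GARS was at -1.01 with all 4 libraries. Its adjusted p there was 0.00103 in limma with the oligonucleotide term and 0.0454 in limma without it. GARS was at -0.59 without the MIA PaCa-2 mimic library, at -1.31 without the PSN-1 mimic library and at -0.71 without the PSN-1 scramble library. It was not called in these 3 fits. WARS was not called at -0.70 without the MIA PaCa-2 scramble library (adjusted p = 0.0531 in limma) or the PSN-1 mimic library (adjusted p = 0.0871 in limma). VARS2 was not called at -0.76 without the PSN-1 scramble library (adjusted p = 0.0531 in limma). WARS2 was called without the MIA PaCa-2 mimic library (0.68, adjusted p = 0.0428 in limma) and in none of the other 3 fits (0.60 to 0.67, adjusted p from 0.0618 to 0.0965 in limma). LARS2 was not called in any of these 4 fits (0.16 to 0.79, adjusted p from 0.0707 to 0.66 in limma). Calls were gained without the MIA PaCa-2 scramble library, where SARS2 was higher in PSN-1 (0.75, adjusted p = 0.0267 in limma) and SARS lower (-0.47, adjusted p = 0.0373 in limma).

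**Figure D5:**
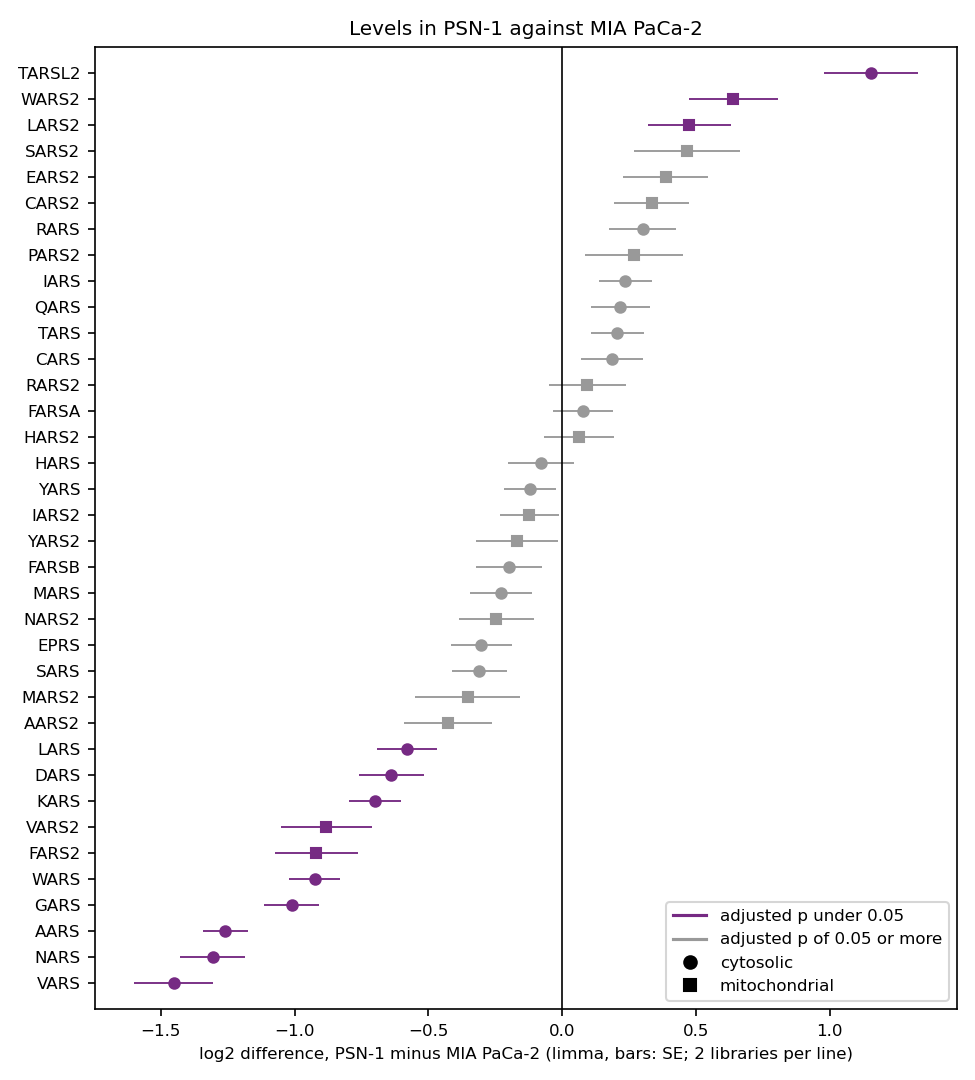
log2 difference between the lines, PSN-1 minus MIA PaCa-2, for each synthetase gene in limma's fit with 2 libraries per line and the oligonucleotide as a block; circles are cytosolic and squares mitochondrial enzymes, bars are the SE, and purple marks an adjusted p under 0.05. VARS (-1.45), NARS (-1.31) and AARS (-1.26) lie at the bottom and TARSL2 (1.15) at the top.

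Genes that make and mature tRNAs were counted beside the synthetases. Of 23 genes of RNA polymerase III and its factors, which transcribe tRNAs, 11 were above 0 in MIA PaCa-2 (median -0.026) and 6 in PSN-1 (median -0.111), where 52.2% and 47.6% of all genes were above 0. TBP, a factor shared by all 3 nuclear RNA polymerases, was the only one of them past 1.5-fold. It was at 22.2 FPKM under the mimic and 11.8 under the scramble in MIA PaCa-2 (0.86), and was at 0.25 in PSN-1. Of all measured genes 5.43% were higher and 4.06% lower past that fold in MIA PaCa-2, and 3.17% and 3.87% in PSN-1. Of the tRNA maturation and charging partners, 9 of 17 measured genes were above 0 in MIA PaCa-2 (median 0.034) and 10 of 16 in PSN-1 (median 0.139). GATC, a subunit of the enzyme that makes mitochondrial glutaminyl-tRNA, was the only one of these partners past 1.5-fold. It was at 6.73 FPKM under the mimic and 3.79 under the scramble in MIA PaCa-2 (0.69) and at 0.20 in PSN-1. Of 8 eIF2 signalling genes, 5 were above 0 in each line (median 0.122 for MIA PaCa-2, 0.032 for PSN-1). Past 1.5-fold, 1 was higher and 1 lower in MIA PaCa-2, while PSN-1 had 0 either way. The higher one was EIF2AK3, the kinase that senses unfolded proteins. It was at 14.5 FPKM under the mimic and 8.59 under the scramble in MIA PaCa-2 (0.69), and at 54.7 and 41.2 FPKM in PSN-1 (mimic, scramble; 0.40). The lower one was PPP1R15A, which helps to remove the phosphate from eIF2. It was at 233 and 365 FPKM in MIA PaCa-2 (mimic, scramble; -0.64) and at 158 and 167 FPKM in PSN-1 (mimic, scramble; -0.075). The kinase genes EIF2AK1, EIF2AK2 and EIF2AK4 ran from -0.011 to 0.155 in MIA PaCa-2, with -0.026 to 0.038 for PSN-1. The lowest adjusted p of these lists in limma's fit of the mimic over both lines was that of the tRNA ligase gene RTCB (adjusted p = 0.315 in limma).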

How the data were processed

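The authors deposited FPKM per gene symbol, 1 file per library, per the file headers. Per the labels' protocols, the kit was TruSeq stranded mRNA, a protocol for polyadenylated RNA. Cuffdiff 2.2.1, TopHat2 2.1.1 and the hg19 build are named in the submitters' processing notes, with no role. Annotation, strand setting and scaling: not given in the sources used here.

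Members, lists and the rule for named genes (members past 1.5-fold, the 5 highest and lowest changes per line and between lines, the extreme levels, those past a log2 change of 0.32 in both lines) were chosen with earlier results of these data known. Changes and folds, those between the lines included, used a pseudocount of 1, so they understate low genes. Limma 3.58.1 (R 4.3.3, lmFit, eBayes with trend, two-sided, Benjamini-Hochberg over 10678 genes) fitted line and oligonucleotide additively, and was tested on simulated data. No label says that libraries came from separate cultures, so p-values measure only the spread between these 4 libraries. In the main fit a gene's own spread has 1 residual degree of freedom, the disagreement of the lines over the mimic. The eBayes step moderates it with a prior of 4.75 degrees of freedom, estimated over all genes. Depth came from the most frequent FPKM times length among single-transcript genes under 0.3 FPKM, assuming fragments of 200 bases. Counting SEs use those fragments and the longest coding transcript of GENCODE release 29 (GRCh38, not the files' build), and cover counting error only. They are for a log2 ratio without a pseudocount, so beside the changes they are too large for low genes. All 36 members matched that annotation by symbol. Python 3.11.15 was used for the rest.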

Additional observations from a re-analysis of the deposited data

Results flagged for a closer look

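VARS2 was the only synthetase gene whose changes lay on opposite sides of 0 in the 2 lines with each change beyond its counting error by a factor of more than 2. Its log2 change with the mimic was -0.26 in MIA PaCa-2 cells and 0.24 in PSN-1, each from 1 mimic and 1 scramble library. The difference between the lines was not tested, since the fit has no replicate within a line. VARS2 overlaps GTF2H4 on the same strand in the annotation, and GTF2H4 was at -0.059 in MIA PaCa-2 cells and 0.028 in PSN-1.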

How the results depend on the processing

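No paired analysis was possible because the labels give no replicate numbers, other than by cell line, which is the block of the mimic fit. Past a log2 change of 0.32, 2 members were higher and 3 lower in MIA PaCa-2, and 3 higher and 3 lower in PSN-1, and at 2-fold 0 in each case. Without GARS and KARS, 0 members were higher past 1.5-fold in either line. A pseudocount of 5 left 0 higher and 0 lower in PSN-1. In MIA PaCa-2 1 member, SARS2, was lower with a pseudocount of 0.1 or with TPM scaling. With TPM scaling the MIA PaCa-2 medians were 0.006 for cytosolic and 0.058 for ATF4-induced members, and 3 mitochondrial members were above 0, as with the trend on transcript GC content removed. Across genes the PSN-1 changes had a Spearman correlation of -0.221 with that GC content. Limma called 0 members for the mimic in every alternative run, with 4 at an unadjusted p under 0.05, or 0 without the cell line as block. Between the lines, a filter of 5 FPKM, which leaves 33 members in the fit, called 1 higher. Leaving out each library in turn, without the oligonucleotide term, an alternative chosen after seeing the data, called 1 to 2 members higher and 6 to 10 lower. Over all genes limma called 6 higher and 1 lower for the mimic, against 0 and 0 with no filter or without the cell line as block, 6 and 0 without the trend, 6 and 2 with a filter of 5 FPKM, 10 and 6 with a pseudocount of 5, and 13 and 10 with TPM scaling. Between the lines, 2 members were called higher with no filter or without the oligonucleotide as block. The calls of LARS2, GARS, WARS, VARS2 and WARS2 ended under the settings given with them above, and SARS was called lower with a pseudocount of 5 (adjusted p = 0.0474 in limma). Depth limits the genes under about 10 FPKM, where counting SEs reached 0.245.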
